A study of Rattus norvegicus with 6 samples.

Results

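The cytosolic ribosomal proteins were followed in liver RNA of rats after embolization with ZnS microspheres (GZM, 3 libraries) and after embolization with blank microspheres (GM, the control, 3 libraries). They were taken by gene symbol, as the Rpl and Rps genes with a number, the P stalk proteins Rplp0 and Rplp1, and Rpsa, without the Rps6k kinases and without names ending in -ps or -like. Of 32623 genes in the table, 98 rows fitted these symbols and 88 of them, with 80 different symbols, held at least 100 counts over the 6 libraries. The large subunit had 51 of these rows and the small subunit 37. All 88 passed the low-count filter of the test across all genes. The labels give liver as the tissue for both groups and call the libraries separate biosamples, with no strain, age, dose or time after embolization, and neither group is an untreated liver.

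Ribosomal proteins assemble with ribosomal RNA into the large and small subunits that make every protein of the cell. Their mRNAs are among the most abundant of growing cells, and nearly all begin with a run of pyrimidines at the cap, the terminal oligopyrimidine tract. Through that tract mTOR signalling governs how much of each mRNA is translated, so mRNA level and protein output need not move together. A few ribosomal proteins have paralogs with their own regulation, and retrotransposed copies of the genes are scattered over mammalian genomes.

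The pyrimidine tract is shown first, since it is the feature the members share that the symbol rule did not use. RefSeq promoters of the rat assembly GRCr8 matched 60 of the 80 symbols, and 54 of these lay on the chromosome that the table gives. A window of 30 bases was read, with 15 bases on each side of the annotated start, and the longest unbroken run of C and T on the transcribed strand was taken. Annotated starts can be some bases off, so a run is described here and not a proven tract. A run of at least 7 bases stood in 38 of the 54 windows (70.4%), against 4892 of 27457 windows of all promoters (17.8%). The median longest run was 9 bases in the members' windows and 4 bases in all windows. The windows below are the longest run of each subunit (Rps23, whose run is as long as that of Rps24, for the small one), 3 members that fell, and Rps27 beside its paralog Rps27l, which rose. They are written 5′ to 3′ with the longest run in capitals.
Rpl34 (chr2:221962269-221962298, minus strand): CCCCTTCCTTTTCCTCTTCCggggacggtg
Rps23 (chr2:23814502-23814531, plus strand): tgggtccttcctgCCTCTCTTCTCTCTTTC
Rpl12 (chr3:36661925-36661954, plus strand): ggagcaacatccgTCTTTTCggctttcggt
Rpl27a (chr1:172974558-172974587, plus strand): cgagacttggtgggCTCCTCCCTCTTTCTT
Rps4y2 (chr4:183000898-183000927, plus strand): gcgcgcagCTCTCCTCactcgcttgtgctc
Rps27 (chr2:177964592-177964621, minus strand): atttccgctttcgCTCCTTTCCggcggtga
Rps27l (chr8:76443643-76443672, plus strand): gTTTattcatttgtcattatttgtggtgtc
The run was 20 bases long in Rpl34, 17 in Rps23, 16 in Rpl27a, 9 in Rps27, 8 in Rps4y2 and 7 in Rpl12. In Rps27l it was 3 bases long, which says only that no longer run of C and T lies in this window.

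The summed counts differed by scale, and this difference runs through every result on these genes. As a share of all counts, the 88 rows held 1.91%, 1.60% and 1.68% in GZM 1 to 3, against 3.65%, 4.26% and 3.07% in GM 1 to 3. All GZM shares lay below all GM shares, with means of 1.73% ± 0.158 in GZM livers and 3.66% ± 0.596 in GM livers (SD, n = 3 each), a ratio of 0.473. Both subunits took part, with 0.469 times the GM share for the large subunit and 0.479 times for the small one. The 10 most abundant genes of each library held 22.46% ± 1.09 of all counts in GZM livers and 10.05% ± 2.83 in GM livers (SD, n = 3 each). With those genes taken out of the total, the members' share was 2.23% in GZM livers and 4.05% in GM livers, a ratio of 0.55. TMM factors, which edgeR sets so that most genes centre near no change, were 0.742, 0.715 and 0.793 for GZM 1 to 3 and 1.43, 1.42 and 1.17 for GM 1 to 3. On TMM-scaled CPM (counts relative to the scaled library total) the members summed to 25690, 22410 and 21210 in GZM livers, against 25580, 30030 and 26160 in GM livers, and the groups overlapped. The ratio of the means on that scale was 0.848. In bulk tissue, fewer cells of a type and less RNA per cell cannot be told apart, and no spiked-in standard was used here to choose between the scales.

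**Figure D1:**
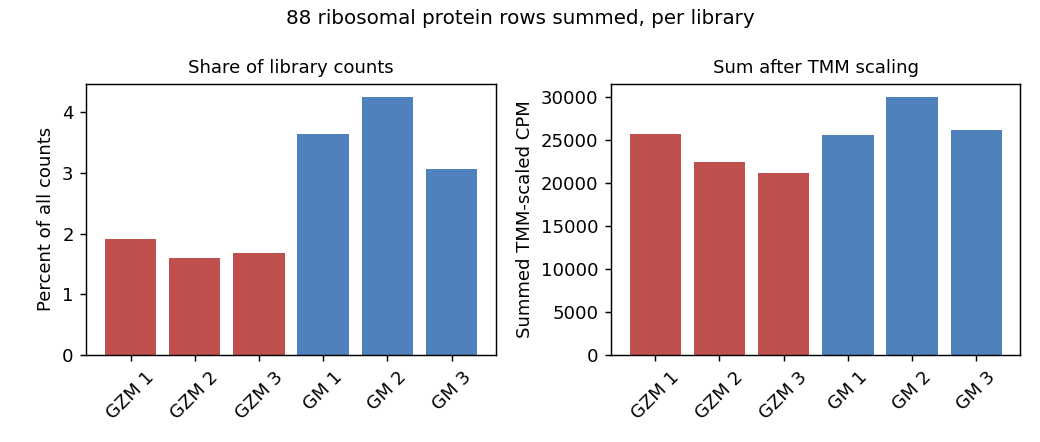
Summed values of the 88 cytosolic ribosomal protein rows in each library, as percent of all counts and as TMM-scaled CPM, with a bar for each library, in red for GZM and blue for GM. The GZM libraries hold 1.60% to 1.91% of all counts and the GM libraries 3.07% to 4.26%, while on the TMM scale the groups overlap.

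On the TMM scale the ribosomal proteins stayed close to the bulk of the genes. Their median log2 fold change (GZM over GM) was -0.19, beside -0.09 for all 14298 genes tested, with quartiles of -0.30 and -0.04. A log2 fold change between -0.5 and 0.5 was found for 82 of the 88 rows (93.2%), against 5883 of all tested genes (41.1%). In edgeR's quasi-likelihood test with Benjamini-Hochberg adjustment over all genes at 0.05, 1 of the 88 rows rose and 4 fell. Of all tested genes 44% passed in either direction, 22.2% higher and 21.7% lower. At an unadjusted p under 0.05, 7 of the 88 rows passed, against 7496 of all 14298 tested genes. On TMM-scaled CPM the groups did not overlap for 28 of the 88 rows, and for 58.1% of all genes tested. A p that misses the threshold does not show that a gene was equal in both groups. Of the 88 fold changes 72 were negative, against 7685 of those of all 14298 tested genes. The large subunit had 0 rows higher and 3 lower of 51, with a median of -0.19, and the small subunit 1 higher and 1 lower of 37, with a median of -0.20. With 1 library left out, the count called was 3 without GZM 1, 2 without GZM 2 and 2 without GZM 3. It was 3 without GM 1, 4 without GM 2 and 7 without GM 3. Over all genes, 3777 to 7024 were called without 1 library, against 6285 with all libraries.

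On library totals with no factors, all 88 log2 fold changes were negative, between -4.59 and -0.13, with a median of -1.04. Of all 14298 tested genes 11611 were negative there, and their median was -0.92. On that scale 78 of the 88 rows passed as lower and 0 as higher, beside 68.7% of all tested genes in either direction, 59.5% lower and 9.2% higher. The scales differ only by 1 factor per library, so the shift between them is common to the genes by construction. For the same reason the members' median differed from that of all genes by -0.11 on either scale. With each library scaled to the members' own summed counts, 1 row rose and 3 fell (41.1% of all genes in either direction, 27.3% higher and 13.8% lower), and these 4 were among the 5 called with TMM factors.

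**Figure D2:**
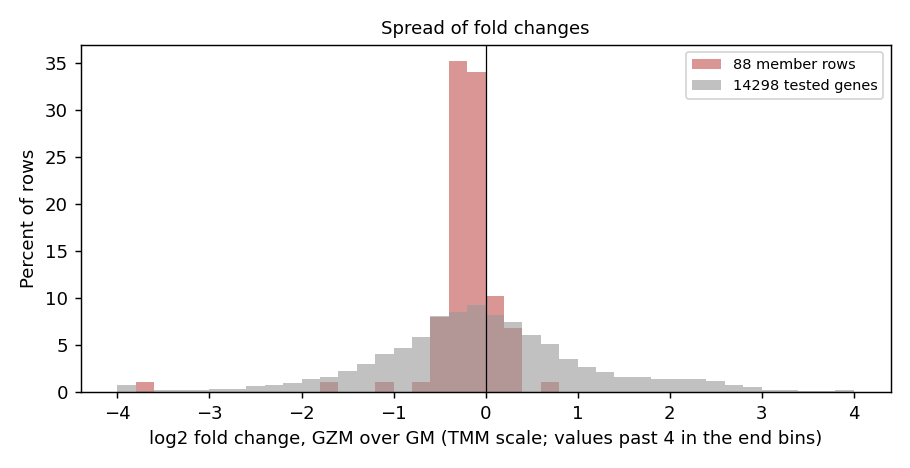
Distribution of log2 fold changes (GZM over GM, TMM factors) of the 88 ribosomal protein rows in red and of all 14298 tested genes in grey, as percent of each set, with values past the ends of the axis in the end bins. The members form a narrow peak with a median of -0.19, and 93.2% of them lie between -0.5 and 0.5, against 41.1% of all tested genes.

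Rps27l was the ribosomal protein that rose. It is a paralog of the small subunit protein Rps27. Rps27l (ENSRNOG00000050473, chromosome 8, 72741155 to 72746090 in the table) had 103.1, 120.4 and 105.9 CPM in GZM 1 to 3, against 64.3, 68.9 and 68.4 CPM in GM 1 to 3. Every GZM library was above every GM library. Means were 109.8 ± 9.28 CPM in GZM livers and 67.2 ± 2.53 CPM in GM livers (SD, n = 3 each), and the log2 fold change was 0.71 ± 0.14 (SE, adjusted p = 0.00695, edgeR), or 1.63-fold. On library totals it was -0.13 with an adjusted p of 0.499 (edgeR), so its rise is relative to the other genes and the direction flips with that scaling. There, -0.13 was the highest value among the 88 rows. That follows from its top rank with TMM factors, since a change of scale moves all genes by similar amounts. Scaled to the members' sum, the log2 fold change of Rps27l was 0.95 (adjusted p = 0.00553, edgeR). With TMM factors Rps27l passed without any 1 of the 6 libraries.

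The parent Rps27 was at 233.1, 193.2 and 158.2 CPM in GZM livers, against 153.6, 176.6 and 201.1 CPM in GM livers, with overlapping groups and a log2 fold change of 0.14 ± 0.21 (SE, adjusted p = 0.607, edgeR). Per length, Rps27l made up 17.7%, 23.2% and 24.5% of the FPKM (counts per exon length and library total) of the pair in GZM livers, against 16.9%, 15.9% and 14.2% in GM livers. The ratio within the pair does not depend on the scaling of a library. Its means were 21.8% ± 3.64 in GZM livers and 15.7% ± 1.38 in GM livers (SD, n = 3 each), with a 2-sided exact permutation p of 0.1, the smallest that 3 against 3 allows. Such shares were compared for 7 paralogs and their parents, and the Benjamini-Hochberg adjusted value over the 7 was 0.233. Rpl7l1, beside Rpl7, made up 31.7% ± 2.71 in GZM livers and 31.5% ± 3.95 in GM livers (SD, n = 3 each, exact permutation p = 0.9). The exact p was also 0.9 for Rpl10l, 0.8 for Rpl3l and 0.2 for Rpl36al, and 0.1 for Rpl39l and Rps4y2. Of the counts on all rows of the parent protein (pooled further on), the Rpl39 row held 0.7% and the Rpl36a row 59.43%. The shares of Rpl39l and Rpl36al were thus taken against only a part of the parent's counts.

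Rpl12 had the largest fall among members above 100 CPM. Its protein lies at the base of the P stalk of the large subunit, where the elongation factors dock. Rpl12 (ENSRNOG00000016220, chromosome 3, 12009578 to 12011666) had 253.9, 224.5 and 208.2 CPM in GZM livers, against 500.9, 568.3 and 312.7 CPM in GM livers. The groups did not overlap, and GM 3 was the GM library nearest to the GZM ones. Means were 228.9 ± 23.2 CPM in GZM livers and 460.6 ± 132.5 CPM in GM livers (SD, n = 3 each), a log2 fold change of -1.01 ± 0.26 (SE, adjusted p = 0.0159, edgeR), or 2.01-fold lower. It was -0.76 (adjusted p = 0.0375, edgeR) when scaled to the members' sum. The call was lost without GZM 2 (adjusted p = 0.068), GZM 3 (0.0684) or GM 1 (0.0562, all edgeR).

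Rpl27a, a large subunit protein, was at 390.5, 340.1 and 327.8 CPM in GZM livers, against 498.2, 669.2 and 478.5 CPM in GM livers. The groups did not overlap. Its log2 fold change was -0.64 ± 0.22 (SE, adjusted p = 0.0446, edgeR), or 1.56-fold lower, close to the threshold. The call was kept without GM 3 and lost without any other library, with adjusted p from 0.0693 to 0.161 (edgeR), and also lost when scaled to the members' sum (adjusted p = 0.157, edgeR).

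The other falling rows were paralogs at low levels. Rps4y2 (ENSRNOG00000031041, chromosome 4, 182745448 to 182746381), a relative of the small subunit protein Rps4x, had 5.52, 11.2 and 9.74 CPM in GZM livers, against 23.4, 50.9 and 15.4 CPM in GM livers. The groups did not overlap, but the GM libraries spread widely. The log2 fold change was -1.76 ± 0.46 (SE, adjusted p = 0.0181, edgeR), or 3.38-fold lower, and the call was lost without GZM 1 (adjusted p = 0.0539) or GZM 3 (0.0502, both edgeR). Its exon length of 934 bases equals the span of its row, so the table gives it no intron. Without GM 2, its highest library, the value was -1.13 (adjusted p = 0.0378, edgeR). Rps4y2 made up 1.84% ± 0.754 of the FPKM of Rps4x and Rps4y2 together in GZM livers and 4.90% ± 2.70 in GM livers (SD, n = 3 each, 2-sided exact permutation p = 0.1, the smallest possible, adjusted 0.233). Rpl39l, a paralog of Rpl39 known from mouse testis, had 0, 0 and 5 counts in GZM livers, against 28, 95 and 15 counts in GM livers. Its log2 fold change was -3.76 ± 1.08 (SE, adjusted p = 0.0247, edgeR), and the call was lost without GZM 1 (adjusted p = 0.0658), GZM 2 (0.0818) or GM 2 (0.0685, all edgeR). Without GM 2 the value was -2.78, and without GZM 3 both GZM libraries left were at 0 counts, so the size of the fall rests on single libraries.

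**Figure D3:**
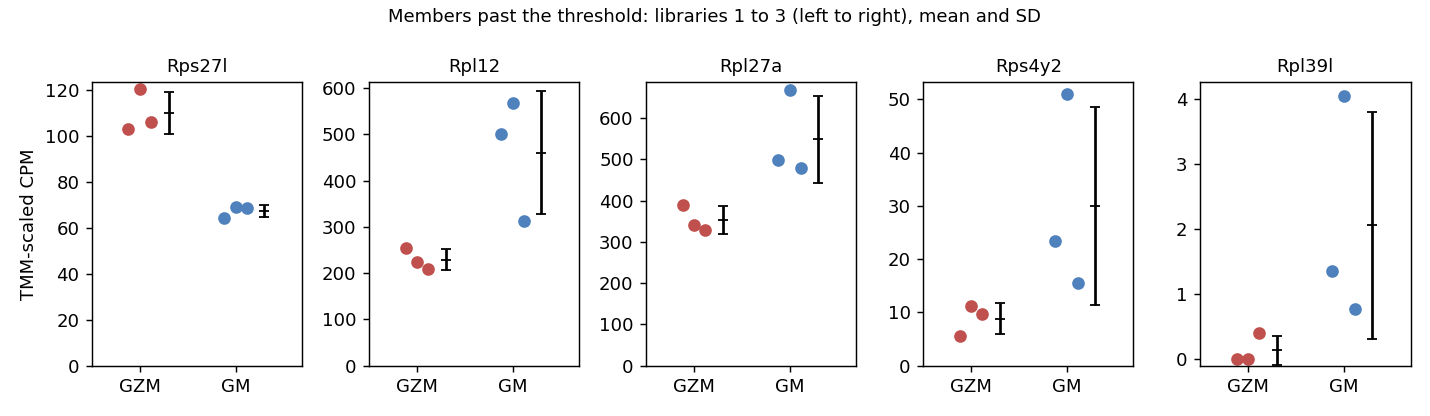
TMM-scaled CPM per library of the 5 members that passed, on linear axes, with a point for each library (red GZM, blue GM) and the mean and SD of each group beside it. Rps27l lies higher in all 3 GZM libraries, and Rpl12, Rpl27a, Rps4y2 and Rpl39l lie lower.

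The P stalk binds the elongation factors that drive translation, and Rplp0 is its core protein. Rplp0 had 904.4, 733.7 and 712.9 CPM in GZM livers, against 993.5, 1296 and 1035 CPM in GM livers. All GZM libraries were lower, and the log2 fold change was -0.50 ± 0.23 (SE), with an adjusted p of 0.118 in edgeR and 0.0408 in DESeq2. DESeq2 called 8 of the 88 rows, 1 higher and 7 lower (24.1% of all genes higher, 22.7% lower), with Rpl6 and Rps3 as its further additions. In edgeR these lay at -0.55 (adjusted p = 0.0779) and -0.47 (adjusted p = 0.0986). Rplp1 was at 266.9, 228.1 and 203.8 CPM in GZM livers, against 207.5, 263.3 and 280.8 CPM in GM livers, with a log2 fold change of -0.11 (adjusted p = 0.689, edgeR) and overlapping groups.

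Rpl5 and Rpl11 form, with a small ribosomal RNA, the particle that binds MDM2 when ribosome assembly is disturbed. Rpl5 had 632.3, 544.2 and 531.9 CPM in GZM livers, against 644.9, 749.6 and 631.4 CPM in GM livers (log2 fold change -0.25, adjusted p = 0.354, edgeR). Rpl11 had 331.2, 286.6 and 269.4 CPM in GZM livers, against 339.8, 404.5 and 343.3 CPM in GM livers (-0.29, adjusted p = 0.236, edgeR). For Rpl11 all GZM libraries were lower and for Rpl5 the groups overlapped, while neither passed. A wider list held chaperones of ribosomal proteins in general and genes placed with that particle. Of its 11 tested genes 0 rose and 2 fell, beside 22.2% of all genes higher and 21.7% lower. On library totals 0 rose and 11 fell (9.2% and 59.5% of all genes). With TMM factors the falls were Rpf2, a factor that brings the particle into the ribosome (-0.96), and Cdkn1a, a cell cycle inhibitor (-1.26). Mdm2 was at -0.45 (adjusted p = 0.14, edgeR).

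Rps27a, made as a fusion of ubiquitin with a small subunit protein, has 2 rows. The main row was at -0.18 (adjusted p = 0.487, edgeR). The second row, on chromosome 5, had 47.3, 50.1 and 80.7 CPM in GZM livers, against 44.3, 53.9 and 44.6 CPM in GM livers (0.32, adjusted p = 0.28, edgeR), with GZM 3 above the rest. Rack1, a small subunit scaffold outside the symbol rule, was at -0.37 (adjusted p = 0.162, edgeR).

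The remaining paralogs did not pass. Rpl22l1, a paralog of the large subunit protein Rpl22, had 82.1, 75.1 and 80.3 CPM in GZM livers, against 68.3, 70.4 and 67.0 CPM in GM livers, with a log2 fold change of 0.21 ± 0.13 (SE, adjusted p = 0.235, edgeR). All GZM libraries were above all GM libraries, and scaled to the members' sum the value was 0.45 (adjusted p = 0.0526, edgeR). Rpl10l, a retrocopy of Rpl10 known for its role in mouse sperm formation, had 3.91, 15.7 and 14.3 CPM in GZM livers, against 11.6, 22.3 and 5.91 CPM in GM livers, with overlapping groups. Rpl7l1 was at -0.18 and Rpl36al at -0.03. The parents Rpl7, Rpl10, Rpl26, Rpl36a, Rpl39 and both rows of Rps4x lay between -0.22 and 0.23, none past the threshold. The 0.23 is that of the Rpl39 row, which held 0.7% of the counts of its protein. Rps19bp1, which the symbol rule takes in although its product binds Rps19 and is no subunit, was at 0.21 (adjusted p = 0.534, edgeR). It was 0.56 (adjusted p = 0.0298, edgeR) without GM 2.

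Per length, the highest members were Rpl41, Rps27a and Rps2, 3 core proteins. Rpl41, among the shortest proteins known, had 1148 ± 96.9 FPKM in GZM livers and 1882 ± 116 FPKM in GM livers (SD, n = 3 each). Rps27a had 750.7 ± 95.8 FPKM in GZM livers and 1527 ± 175 FPKM in GM livers, and Rps2 had 692 ± 54.9 FPKM in GZM livers and 1553 ± 310 FPKM in GM livers (SD, n = 3 each). FPKM carries no composition factor, and on the TMM scale the log2 fold changes were 0.12, -0.18 and -0.32, none past the threshold. Replicates were close, with a median coefficient of variation of 11.1% in GZM livers and 9.38% in GM livers over the 77 members with at least 1000 counts. On the TMM scale GZM 1 was the highest GZM library for the members and GM 2 the highest GM library.

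**Figure D4:**
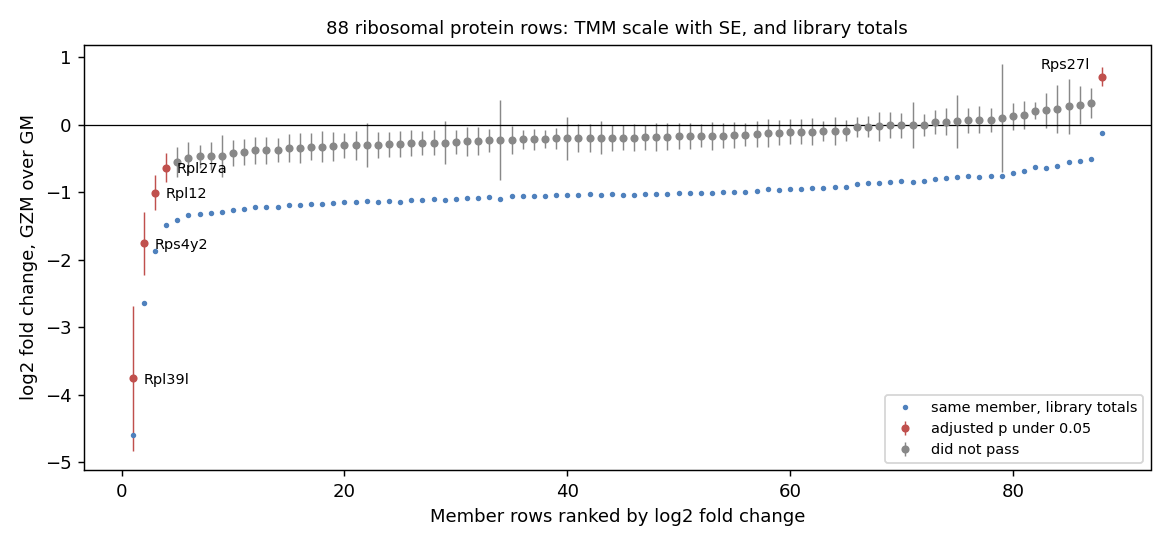
Log2 fold change (GZM over GM) of the 88 rows in rank order, with TMM factors and their SE in red where the member passed and in grey where it did not, and with library totals in blue. With TMM factors 82 of the 88 rows lie between -0.5 and 0.5, and on library totals all 88 are below 0.

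Some ribosomal proteins had few or no counts under their own symbol, and other rows are described as ribosomal proteins under other names. Rpl10a, Rpl23a, Rplp2 and Rps6 held 0, 0, 1 and 9 counts in all 6 libraries together, and no row of the table has the symbol Rpl22, Rps14, Rps19 or Rps26. At the edge of the 100-count minimum, Rps29 with 100 counts, Rpl38 with 102 and Rpl39 with 116 were inside, and rows of Rpl35al1 with 50 and Rps15al4 with 49 were outside. Of 49 tested rows described as ribosomal proteins but named otherwise, 3 rose and 3 fell (22.2% of all genes higher, 21.7% lower), with a median log2 fold change of -0.13. On library totals 1 rose and 36 fell (9.2% and 59.5% of all genes), with a median of -0.96. With TMM factors the falls were an L10a-like row, LOC100363537 (-1.61), an S17-like row, LOC100365810 (-0.57), and a row similar to L27a, RGD1562402 (-0.64), and the rises were the L30-like, S9-like and L36a rows given further on. Among them the L9-like row was at -0.07, the S14-like row at -0.22, the S29 row at 0.14, the L39 row at -0.13 and the L22-like row at -0.13, none past the threshold.

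Rpl30 and a row described as like it divided their counts differently among libraries. Rpl30, a large subunit protein, had 2628, 1437 and 1483 counts in GZM livers, against 4241, 5751 and 5079 counts in GM livers. The L30-like row LOC100362027 (chromosome 10, 38024477 to 38024937) had 271, 1235 and 1398 counts in GZM livers, against 509, 468 and 445 counts in GM livers. GZM 2 and GZM 3 were low in Rpl30 and high in the L30-like row, and GZM 1 was not. The sum was 2899, 2672 and 2881 counts in GZM livers, against 4750, 6219 and 5524 counts in GM livers. The L30-like row held 9.35%, 46.2% and 48.5% of the sum in GZM livers, against 10.7%, 7.53% and 8.06% in GM livers. Apart, Rpl30 was at -0.46 ± 0.31 (SE, adjusted p = 0.263, edgeR) and the L30-like row at 1.91 ± 0.48 (SE, adjusted p = 0.0145, edgeR). Without GZM 1 Rpl30 passed as lower (-0.90, adjusted p = 0.0209, edgeR). With all rows of the L30 protein pooled, the log2 fold change was 0.04 (adjusted p = 0.872, edgeR).

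**Figure D5:**
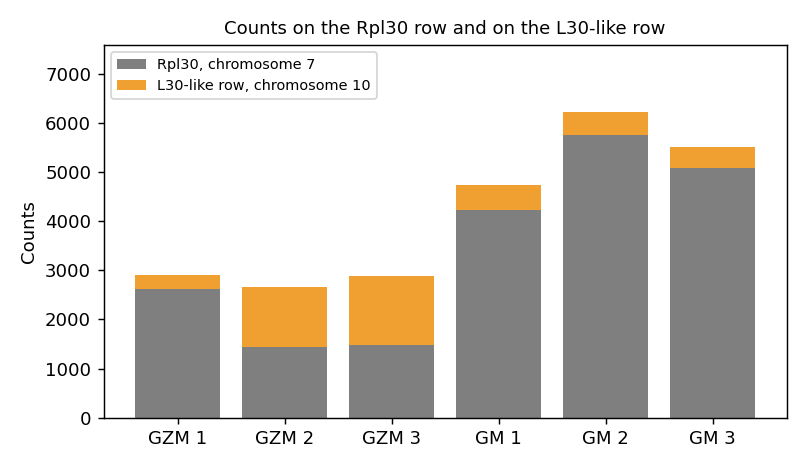
Counts per library of Rpl30 and of the L30-like row LOC100362027, stacked. The L30-like row holds 9.35%, 46.2% and 48.5% of the sum in GZM 1 to 3 and 7.53% to 10.7% in the GM libraries.

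Rows were also pooled by protein, through their shared KEGG orthology number, with Rpl7l1, Rpl10l, Rpl22l1, Rpl36al, Rpl39l, Rps27l and Rps19bp1 kept apart, and with Rps10l1 and Rps18l1 in the pools of Rps10 and Rps18, and Rps4y2 pooled with Rps4x (-0.26, adjusted p = 0.34, edgeR). This gave 70 proteins from 576 rows, of which 382 had counts. For 17 proteins the main row held under 80% of the pooled counts, and for Rpl8, Rpl9, Rpl39 and Rps29 under 11%. Of the 70 pooled proteins 1 rose and 2 fell (44.2% of all genes in either direction, 22.3% higher and 21.9% lower), the median log2 fold change was -0.18, and 65 lay between -0.5 and 0.5. Rpl12 at -0.76 (adjusted p = 0.025, edgeR) and Rpl27a at -0.64 (adjusted p = 0.045, edgeR) passed as lower. Rps9, a small subunit protein, passed as higher at 0.82 (adjusted p = 0.0167, edgeR). Its own row had 73, 132 and 123 counts in GZM livers, against 258, 242 and 214 counts in GM livers (-0.20, adjusted p = 0.539, edgeR). The S9-like row AABR07026058.1, among the rows pooled, had 149, 202 and 149 counts in GZM livers, against 47, 40 and 82 counts in GM livers (2.48, adjusted p = 0.00312, edgeR).

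Genes that build ribosomes and genes of the mitochondrial ribosome were read from the same fit, on the TMM scale. Of 26 tested genes of ribosome biogenesis, which make and process ribosomal RNA, 0 rose and 15 fell (21.7% of all genes lower), with a median log2 fold change of -0.75. Their summed share of counts was 0.106% to 0.117% in GZM livers and 0.218% to 0.499% in GM livers. Utp20, a part of the processome that cuts the small subunit's RNA (-1.39), Polr1a, the largest subunit of RNA polymerase I (-0.87), and Nop56 (-1.34) and Nop58 (-1.31), core proteins of the particles that methylate ribosomal RNA, fell. The mitochondrial ribosomal proteins, subunits of the separate ribosome that translates mitochondrial mRNAs, showed the other direction, with 29 of 74 higher (22.2% of all genes) and 0 lower and a median of 0.39. Mrps34 (1.27), Mrpl2 (0.94), Mrpl52 (0.97) and Mrpl15 (0.84) had the smallest p values. On library totals their median was -0.45, with 0 higher and 29 of 74 lower, and that of the biogenesis genes -1.61, with 0 higher and 26 of 26 lower (9.2% of all genes higher, 59.5% lower). No test of the difference between these lists and the cytosolic members was made.

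Of 16 translation-linked genes with a pyrimidine tract, 1 rose and 6 fell (22.2% of all genes higher, 21.7% lower), with a median of -0.15. On library totals 0 rose and 15 fell (9.2% and 59.5% of all genes), with a median of -0.99. With TMM factors Nap1l1 (a histone chaperone, -1.36), Hnrnpa1 (a splicing factor, -1.17), Npm1 (nucleophosmin, which works in the nucleolus, -1.04) Eef1g (an elongation factor subunit, -0.91), Eif4b (an initiation factor, -0.81) and Pabpc1 (poly(A)-binding protein, -0.66) fell, and Tpt1 rose (0.71, adjusted p = 0.0402, edgeR, and -0.13 on library totals). Of 29 initiation factors 1 rose and 3 fell, shares below those of all genes, with a median of -0.26, and on library totals 0 rose and 27 fell. With TMM factors Eif2b4, a subunit of the exchange factor of initiation, rose (0.53, and -0.30 on library totals), and Eif2b3 of the same complex (-1.17), Eif1ax (-0.76) and Eif4g3 (-0.67) fell. Of 10 elongation and release factors and genes linked to them, 1 rose and 4 fell, with a median of -0.33. On library totals 0 of these rose and 9 fell, with a median of -1.18. With TMM factors the falls were Eif5a2 (-1.58), Eef1e1 (-1.39), Gspt2 (-2.27) and Eef2k, the kinase that slows elongation (-0.61), and the rise was Hbs1l, a rescue factor of stalled ribosomes (0.45). Of 16 regulators of ribosomal protein genes 3 rose and 1 fell, shares below those of all genes, with a median of -0.06, and on library totals 0 rose and 12 fell. With TMM factors Eif4ebp2, a repressor of cap-dependent initiation (0.48), Rheb, the activator of mTOR (0.48), and Deptor, an mTOR inhibitor (1.12), rose and Gabpa, a transcription factor of ribosomal protein genes (-0.58), fell. On library totals Eif4ebp2 was at -0.35, Rheb at -0.35 and Deptor at 0.29, none past the threshold. Myc was at -0.72 (adjusted p = 0.181, edgeR) and Mtor at -0.02.

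Markers of other cell types and states stand beside these counts, on the TMM scale, where 22.2% of all genes were higher and 21.7% lower. Total counts ran from 13443115 to 16604067 per library. Of 18 hepatocyte genes 17 rose and 0 fell, with 14.6% to 15.8% of all counts in GZM livers and 2.77% to 8.75% in GM livers. Of 20 cell division genes 0 rose and 20 fell, with 0.0261% to 0.03% of counts in GZM livers and 0.101% to 0.315% in GM livers. GM 3 was the GM library nearest to the GZM ones on both. Of 12 macrophage and neutrophil genes 1 rose and 4 fell (0.148% to 0.222% of counts in GZM livers, 0.523% to 0.792% in GM livers), and of 12 T and B cell genes 0 rose and 1 fell (0.00722% to 0.0211% in GZM livers, 0.0404% to 0.0653% in GM livers). Of 8 fibroblast and stellate cell genes 1 rose and 1 fell (0.144% to 0.311% in GZM livers, 0.504% to 1.38% in GM livers). Of 7 endothelial genes 4 rose and 1 fell (0.0282% to 0.0369% in GZM livers, 0.0334% to 0.0474% in GM livers), and of 7 red cell precursor genes 2 rose and 0 fell (0.0499% to 0.0934% in GZM livers, 0.015% to 0.0572% in GM livers). The percentages of counts carry no TMM factors. On library totals, 9.2% of all genes were higher and 59.5% lower. There 15 hepatocyte genes rose and 0 fell, and 0 cell division genes rose and 20 fell. For macrophages and neutrophils 1 rose and 8 fell, for T and B cells 0 and 5, and for fibroblasts and stellate cells 0 and 7. Endothelial genes had 0 rises and 1 fall, and red cell precursor genes 0 and 0. No gene of these lists was at 0 in all libraries. Their part in the ribosomal protein values was not tested.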

How the data were processed

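Polyadenylated RNA was sequenced in strand-specific libraries, per the labels' protocols. The deposited table gives whole-number counts and FPKM values per gene and library, per the file headers. Recomputing the deposited FPKM from the counts, the table's exon lengths and each library's summed counts gave all 195738 values within 0.01. GZM columns carry the letters ZGM and were matched by them. The build is mRatBN 7.2 per the submitters' processing notes, but positions in the table reach 282724300 on chromosome 1, beyond that build, so table coordinates are given as deposited and not joined to RefSeq coordinates (GRCr8). Aligner, counter and use of strand: not given in the sources used here. Hence overlapping genes and near-identical copies remain uncertain.

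Counts were tested with edgeR 4.0.16 (R 4.3.3; glmQLFit and glmQLFTest, TMM factors, default low-count filter, no covariate, Benjamini-Hochberg adjustment over 14298 genes, threshold 0.05). SEs are derived from the quasi-F. All CPM carry the TMM factors. DESeq2 1.42.0 was an alternative, beside library totals, median-of-ratios factors, scaling to the members' sum, no filter, a replicate block, a minimum of 1000 counts and leaving libraries out. The procedure was tested on simulated counts of 14298 genes, 200 of them changed. It recovered 30% of the 2-fold and 95% of the 4-fold changes, with 12 false calls. Far fewer genes were changed there than were called in the data, so these rates need not hold for the data. Replicates of a group differed by more than sampling noise. P-values measure the spread between the 3 biosamples of each group, whose origin in separate animals is not stated.

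The members and all gene lists were chosen with earlier results of these data known. Named genes are the members past the threshold, the P stalk, Rpl5 and Rpl11, the ubiquitin fusion, the paralogs and their parents, the 3 members highest per length, and from each list the genes with the smallest p, at most 4. Rpl30, Rps9, the copies, Rpl6, Rps3, Hbs1l, Eif4b, Pabpc1, Tpt1, Mdm2, Myc and Mtor were named after their values were seen. Pooling by KEGG orthology number was added after seeing the data.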

Additional observations from a re-analysis of the deposited data

How the results depend on the processing

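With TMM factors 5 of the 88 members were called, against 78 on library totals, 8 with DESeq2 (Rpl6, Rplp0 and Rps3 added), 2 to 7 without any 1 library and 9 without GZM 1 and GM 3, a pair of omissions chosen after seeing the data. Rps27l was called in each of these except library totals. Over all genes the call was 6285, against 9828 on library totals and 3777 to 7024 without 1 library. The median log2 fold change of members was -0.19, against -1.04 on library totals and 0.049 scaled to the members' sum. That last scale makes the members' sum equal in all libraries, so it centres the members near 0 by construction. Correlations of deviations between GZM and GM libraries of equal number were -0.154, 0.16 and -0.316, and those of unlike number ran from -0.228 to 0.304. With 3 libraries per group these values cannot show whether the numbers pair the samples. With the number as a replicate block 4 members and 5166 genes were called, with Rpl27a at an adjusted p of 0.118 (edgeR). Over 27 named genes, 312 of 375 recomputed values kept their direction and side of the threshold. On library totals the sign turned for Rpl10 (-0.79), Rpl22l1 (-0.63), Rpl39 (-0.61), Rpl41 (-0.71), Rps19bp1 (-0.65), Rps27 (-0.69), the second Rps27a row (-0.51) and Rps27l (-0.13). Scaled to the members' sum it turned for Rpl10l (0.10), Rpl26 (0.14), Rpl36a (0.033), Rpl36al (0.20), Rpl7 (0.074), Rpl7l1 (0.083), Rplp1 (0.13), the main Rps27a row (0.046) and both Rps4x rows (0.01 and 0.026). Median-of-ratios factors turned Rpl36al (0.0014), and pooling by protein Rpl36a (0.26) and Rpl39 (-0.13). Without 1 library the sign turned for members near 0, with ranges of -0.023 to 0.14 for Rpl10, -0.54 to 0.38 for Rpl10l, -0.21 to 0.0026 for Rpl26, -0.12 to 0.10 for Rpl36al, -0.30 to 0.041 for Rpl7l1, -0.23 to 0.024 for Rplp1 and -0.0022 to 0.28 for Rps27. The cause was not tested. The 11 members under 1000 counts rest on little depth.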

Other observations

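A further pair of rows of 1 protein had different fold changes, and it is named here after its values were seen. The row LOC108348287, described as the large subunit protein L36a, had 1583, 1600 and 1523 counts in GZM livers, against 1455, 1661 and 1806 counts in GM livers, and its log2 fold change was 0.88 ± 0.19 (SE, adjusted p = 0.00899, edgeR). Rpl36a itself had 1464, 1356 and 1554 counts in GZM livers, against 3020, 3821 and 2890 counts in GM livers, at -0.20 ± 0.16 (SE, adjusted p = 0.326, edgeR). Both L12-like rows, LOC102555453, were at 0.16 and 0.21, with adjusted p of 0.648 and 0.665 (edgeR), while Rpl12 fell.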
